A study of Homo sapiens with 2 samples.

Results

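The 10 genes described here are alpha and beta tubulin genes, measured in PC3 cells, an established human line derived from prostate cancer. They are the beta tubulin genes TUBB, TUBB2A, TUBB2B, TUBB3, TUBB4B and TUBB6 and the alpha tubulin genes TUBA1A, TUBA1B, TUBA1C and TUBA4A, and they were found by symbol among 58174 listed genes. TUBB2B was chosen by its measured values, as one of the genes with the largest rise after POH1 siRNA, and the others as its gene family, so its values, and those of the other tubulin genes in the same comparison, are given as a description. The cells had been transfected with a small interfering RNA (siRNA) against POH1 or with a control siRNA, and there was 1 RNA sequencing library from each. POH1, encoded by PSMD14, removes ubiquitin chains from proteins as the proteasome takes them in. With 1 library per group no error could be computed and no difference was tested, so every difference is one between these libraries. The sources used here do not give the siRNA sequences, the time after transfection or the number of cultures.

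Alpha and beta tubulin form the dimer from which microtubules are built. Vertebrates have several genes for each, called isotypes, whose products are most alike in the body of the protein and differ most in a short acidic tail at the end. TUBB and TUBB4B are broadly expressed beta isotypes, whereas TUBB2A, TUBB2B and TUBB3 are best known from neurons, where mutations of TUBB2B, TUBB3 and TUBA1A cause malformations of the brain. Beta isotype levels, TUBB3 in particular, have been studied in tumours because taxanes, which are used against prostate cancer, bind beta tubulin. Cells also adjust tubulin messages to the supply of free dimer: the factor TTC5 recognises the first residues of a new tubulin chain at the ribosome and starts decay of the message.

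TUBB2B and TUBB2A lie near each other on the minus strand of chromosome 6 and are near-identical copies. Their coding sequences, each 1338 bases with the stop codon, differed at 25 bases, an identity of 98.1%, and 23 of the 25 were at the last base of a codon. Only 2 of the codons that differed stood for different amino acids. The differences were unevenly spread: exon 2 held 9 and exon 3 held 10, while bases 610 to 1334, counted from 1 at the A of the start codon, formed a run of 725 identical bases. Exons 2 and 3 are shown because they hold most of what distinguishes these messages within the coding part, and capitals mark the bases that differ (GENCODE release 29 transcripts, GRCh38, minus strand; exon 2 of TUBB2B is at chr6:3226561-3226669 and that of TUBB2A at chr6:3156044-3156152, exon 3 of TUBB2B at chr6:3226159-3226269 and that of TUBB2A at chr6:3155625-3155735).
TUBB2B exon 2: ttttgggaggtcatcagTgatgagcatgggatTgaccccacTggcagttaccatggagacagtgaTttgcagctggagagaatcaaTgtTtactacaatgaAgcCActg
TUBB2A exon 2: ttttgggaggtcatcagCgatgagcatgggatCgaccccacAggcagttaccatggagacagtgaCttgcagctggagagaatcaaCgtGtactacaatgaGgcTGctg
TUBB2B exon 3: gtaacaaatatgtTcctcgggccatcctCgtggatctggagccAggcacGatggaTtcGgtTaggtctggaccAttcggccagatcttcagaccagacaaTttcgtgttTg
TUBB2A exon 3: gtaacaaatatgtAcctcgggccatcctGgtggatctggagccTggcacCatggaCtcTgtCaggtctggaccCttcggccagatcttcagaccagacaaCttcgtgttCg

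The end of the coding sequence, which encodes the acidic tail, differs more between the other beta isotypes than between TUBB2B and TUBB2A. In the last bases, TUBB2B and TUBB2A differ in the codon before the stop and in the stop codon itself. The last 60 coding bases of each of the 6 beta genes are shown for that reason, with the stop codon in capitals.
TUBB2B: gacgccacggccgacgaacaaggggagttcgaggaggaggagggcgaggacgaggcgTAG
TUBB2A: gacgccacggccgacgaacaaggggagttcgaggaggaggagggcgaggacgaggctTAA
TUBB: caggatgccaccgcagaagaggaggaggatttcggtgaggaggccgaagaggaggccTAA
TUBB4B: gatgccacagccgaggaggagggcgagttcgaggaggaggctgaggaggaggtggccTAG
TUBB3: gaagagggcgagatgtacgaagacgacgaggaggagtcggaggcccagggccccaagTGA
TUBB6: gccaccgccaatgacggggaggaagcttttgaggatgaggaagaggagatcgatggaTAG

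The targeted gene, PSMD14, was at 35.1 TPM in the POH1 siRNA library and 50.9 TPM in the Control siRNA library, so that 69.0% of the Control siRNA level remained. TPM, the transcript abundance unit of the table, is scaled per transcript length and sums to a fixed total in each library, so levels of different genes can be set side by side but are relative. Differences are on the log2(TPM + 1) scale, POH1 siRNA minus Control siRNA, which understates the change of low genes, and genes were called higher or lower when this reached the log2 of 1.5. Averaging at least 1 TPM were 15008 genes, whose median log2 difference was 0.12, so a gene near 0 lies slightly below the middle. All 10 tubulin genes passed that filter. PSMD14 had a log2 difference of -0.52, so the targeted gene was itself within 1.5-fold by this rule. The cells carried epithelial messages: KRT8, KRT18, KRT19, EPCAM and CDH1 summed to 3016 TPM in the POH1 siRNA library and 2706 TPM in the Control siRNA library. KLK3, which encodes prostate-specific antigen and which PC3 cells are known to lack, was listed at 0 in both libraries.

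TUBB2B (ENSG00000137285) was at 23.7 TPM in the POH1 siRNA library and 0.0315 TPM in the Control siRNA library, a log2 difference of 4.58. It was thus close to undetected in one library and a low, clearly listed message in the other. The highest difference of the 15008 genes was that of ENSG00000273088, a gene without a symbol in the name table. TUBB2B had the second highest, a place that follows from its choice. Because the Control siRNA value is so near 0, its log2 difference depends on the pseudocount, being 7.50 with 0.1 and 2.51 with 5 in place of 1.

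Its neighbour and copy TUBB2A (ENSG00000137267) was at 49.1 TPM in the POH1 siRNA library and 35.9 TPM in the Control siRNA library, a log2 difference of 0.44, which is under 1.5-fold. Both copies were thus higher in the POH1 siRNA library, and how reads were divided between them was not tested. The sum of the copies, which depends less on how reads were divided between them than either value does, was 72.7 TPM in the POH1 siRNA library and 35.9 TPM in the Control siRNA library, a log2 difference of 1.00. It is not free of that division, since TPM divides by length and the main transcripts differ in length (2020 bases for TUBB2B and 1595 for TUBB2A). TUBB2B stood at 48.2% of the TUBB2A level in the POH1 siRNA library and at 0.0878% in the Control siRNA library. A pseudogene between them, TUBB2BP1, was listed at 0 in both.

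The annotated exons of TUBB2B also overlap PSMG4, a proteasome assembly chaperone gene on the opposite strand, over 174 bases (7.93% of the exon bases of TUBB2B). PSMG4 was at 38.5 TPM in the POH1 siRNA library and 41.5 TPM in the Control siRNA library. TUBB2B and PSMG4 together were at 62.2 TPM in the POH1 siRNA library and 41.6 TPM in the Control siRNA library, a log2 difference of 0.57. The sources used here do not say whether reads were assigned by strand. On the far side of TUBB2A, BPHL was at 19.8 and 18.3 TPM in the POH1 siRNA and Control siRNA libraries, and SLC22A23, beyond PSMG4, at 3.38 and 6.17 TPM. No other of these neighbouring genes was 1.5-fold higher, and SLC22A23 was lower, by -0.71.

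TUBB3 (ENSG00000258947), the neuronal class III isotype, was the other tubulin gene past 1.5-fold. It was at 29.8 TPM in the POH1 siRNA library and 17.3 TPM in the Control siRNA library, a log2 difference of 0.75. In the annotation 89.0% of the 100-base windows of its main transcript are also part of ENSG00000198211, a gene on the same strand that shares its exons. That gene was at 1.64 TPM in the POH1 siRNA library and 2.38 TPM in the Control siRNA library, and the sum of both differed by 0.65. After adjustment for GC content, TUBB3 differed by 0.57 and was no longer past 1.5-fold.

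The broadly expressed beta isotypes were close to level. TUBB (ENSG00000196230) was at 1866 TPM in the POH1 siRNA library and 1836 TPM in the Control siRNA library, a log2 difference of 0.02. TUBB4B (ENSG00000188229) was at 1047 TPM in the POH1 siRNA library and 952 TPM in the Control siRNA library, a difference of 0.14. TUBB6 (ENSG00000176014) was at 29.4 TPM in the POH1 siRNA library and 25.5 TPM in the Control siRNA library, a difference of 0.20.

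Among the alpha genes none was past 1.5-fold. TUBA1B (ENSG00000123416), the main alpha isotype of most dividing cells, was at 2154 TPM in the POH1 siRNA library and 2075 TPM in the Control siRNA library, a log2 difference of 0.05. TUBA1C (ENSG00000167553) was at 858 TPM in the POH1 siRNA library and 772 TPM in the Control siRNA library, a difference of 0.15. These and TUBA1A are neighbours on chromosome 12. TUBA1A (ENSG00000167552), the alpha isotype of young neurons, was at 258.7 TPM in the POH1 siRNA library and 259.3 TPM in the Control siRNA library, a difference of -0.0031. TUBA4A (ENSG00000127824), whose product lacks the terminal tyrosine that most alpha tubulins are made with, had the lowest difference, at 323 TPM in the POH1 siRNA library and 390.3 TPM in the Control siRNA library, a difference of -0.27.

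**Figure D1:**
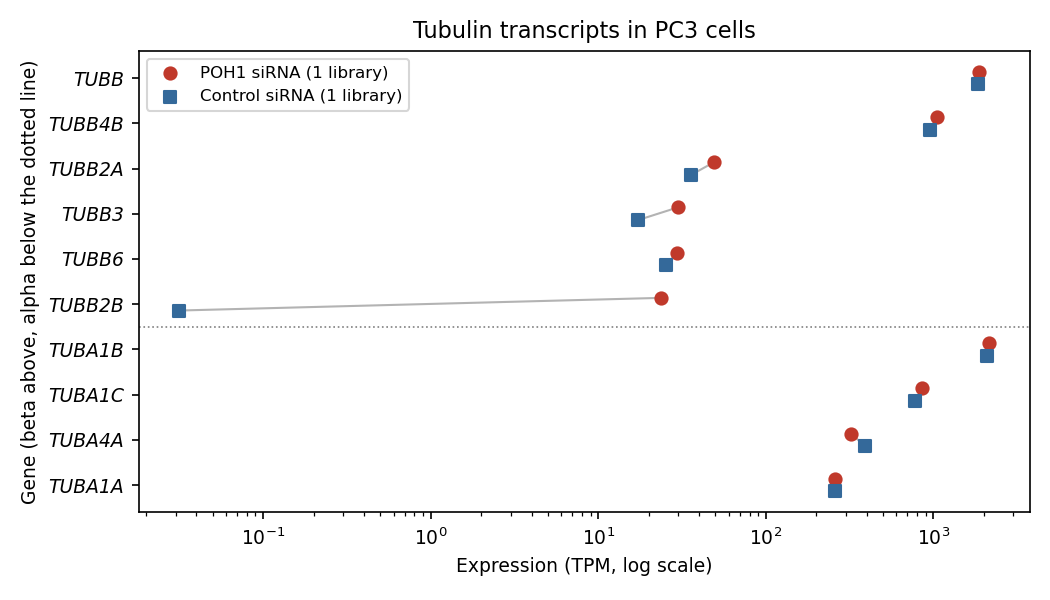
TPM of the 10 tubulin genes on a log axis, with the POH1 siRNA library as circles and the Control siRNA library as squares, 1 library each. TUBB2B spans from 0.0315 TPM in Control siRNA to 23.7 TPM in POH1 siRNA, while the marks of TUBB, TUBA1B and TUBA1A nearly coincide.

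In all, 2 of the 10 tubulin genes were at least 1.5-fold higher in the POH1 siRNA library and 0 were 1.5-fold lower, with 8 within 1.5-fold. Of all genes tested, 10.2% were higher and 8.88% were lower by the same rule. At 2-fold, 1 of the 10 was higher, TUBB2B, and 0 were lower, beside 2.15% and 2.93% of all genes. The nearest to the 1.5-fold limit were TUBB3, past it at 0.75, and TUBB2A, short of it at 0.44. Since TUBB2B was picked on this comparison, nothing is read from these counts. The median log2 difference of the 10 was 0.15, beside 0.12 over all genes. The beta genes, TUBB2B included, had a median of 0.32 and the alpha genes one of 0.03. Because the beta median holds the gene picked for its rise, nothing is read from this gap. Without TUBB2B, the 9 others had a median of 0.14 and ran from -0.27 to 0.75. Scaling to a median ratio of 0, which lowers log2 ratios by 0.15, turned the signs of TUBB, TUBB4B and TUBA1B negative, so no direction is read from these 3.

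The order of the levels was nearly the same in both libraries. In the POH1 siRNA library it ran from TUBA1B through TUBB, TUBB4B, TUBA1C, TUBA4A, TUBA1A, TUBB2A, TUBB3 and TUBB6 to TUBB2B. In the Control siRNA library TUBB6 and TUBB3 stood the other way round, and the rest of the order was the same. With no replicates, no spread is at hand to say which neighbours in the order differ. The 10 genes made up 0.664% of all TPM in the POH1 siRNA library and 0.636% in the Control siRNA library.

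The isotype balance moved little. The beta genes summed to 3045 TPM in the POH1 siRNA library and 2866 TPM in the Control siRNA library, and the alpha genes to 3594 and 3497 TPM. The ratio of alpha to beta messages was 1.18 in the POH1 siRNA library and 1.22 in the Control siRNA library. TUBB and TUBB4B held 95.7% of the beta sum in the POH1 siRNA library and 97.3% in the Control siRNA library. TUBB alone held 61.3% in the POH1 siRNA library and 64.0% in the Control siRNA library. TUBB2B supplied 0.777% of the beta sum in the POH1 siRNA library and 0.0011% in the Control siRNA library. TUBB2A, TUBB2B, TUBB3 and TUBB6 together supplied 4.33% in the POH1 siRNA library and 2.74% in the Control siRNA library. TUBB2B accounted for about as much of that gain as the other 3 genes together: its share grew by 0.776 points, that of TUBB3 by 0.377, that of TUBB2A by 0.359 and that of TUBB6 by 0.0782. In the alpha genes, the share of TUBA1C was 23.9% in the POH1 siRNA library and 22.1% in the Control siRNA library, and that of TUBA4A 8.99% and 11.2%.

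**Figure D2:**
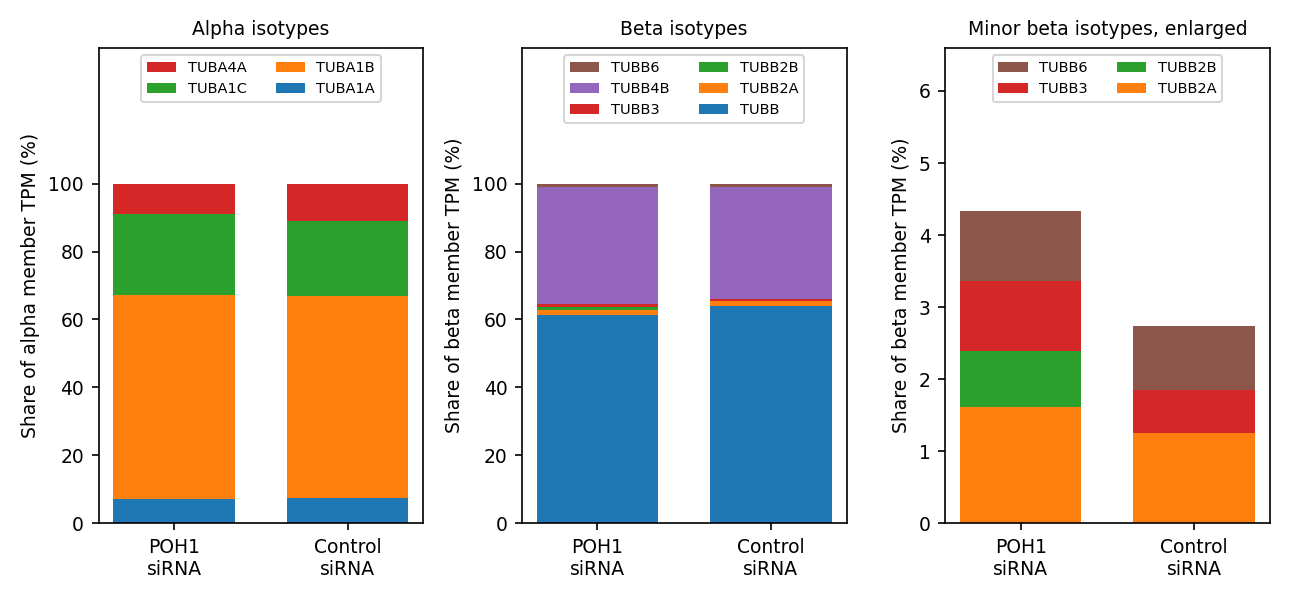
Stacked bars of each gene's share, in percent, of the summed TPM of the alpha genes (left) or beta genes (middle), with the minor beta genes enlarged (right), and POH1 siRNA left of Control siRNA in each panel. The minor beta genes reach 4.33% in POH1 siRNA and 2.74% in Control siRNA, and TUBB2B is visible in the POH1 siRNA bar only.

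How far a short read can tell these genes apart was read from the annotated transcripts. Windows of 100 bases were taken from the main transcript of each gene and looked up, on both strands, in every other annotated gene. Of the windows of TUBB2B, 53.8% were found in no other gene, and 42.4% were also part of TUBB2A. For TUBB2A, 43.6% were found in no other gene. At 150 bases the unique share was 60.6% for TUBB2B and 50.6% for TUBB2A, and at 50 bases 47.8% and 34.5%. TUBB2B shared fewer windows with the abundant isotypes: its coding identity was 84.9% with TUBB and 86.7% with TUBB4B. The TUBB2B level equalled 1.27% of the TUBB level in the POH1 siRNA library and 0.0017% in the Control siRNA library. The sources used here do not give the read length or the rule for reads that match several places, and their part in the TUBB2B value was not tested.

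The alpha genes are alike to a similar degree. TUBA1A, TUBA1B and TUBA1C had pairwise coding identities of 96.3% to 97.3%, and TUBA4A one of 85.0% to 86.3% with them. TUBA1A, TUBA1B and TUBA1C summed to 3271 TPM in the POH1 siRNA library and 3107 TPM in the Control siRNA library, a log2 difference of 0.07. For TUBA1B, 28.9% of the 100-base windows were found in no other gene. The largest overlap was with TUBA1B-AS1, a noncoding gene on the opposite strand, which was listed at 2206 TPM in the POH1 siRNA library and 1768 TPM in the Control siRNA library, levels in the range of TUBA1B. Both overlap over 1309 exon bases, and without strand their reads cannot be told apart. Their sum differed by 0.18. By windows of the main transcript, TUBB6 and TUBB4B were the best separated: no window of TUBB6, and 4.49% of those of TUBB4B, occurred in another gene. Over all its annotated exons, however, TUBB6 overlaps AFG3L2 on the opposite strand over 837 bases (20.3%). AFG3L2 was at 46.9 TPM in the POH1 siRNA library and 52.8 TPM in the Control siRNA library. The part of this overlap in the TUBB6 value was not tested.

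**Figure D3:**
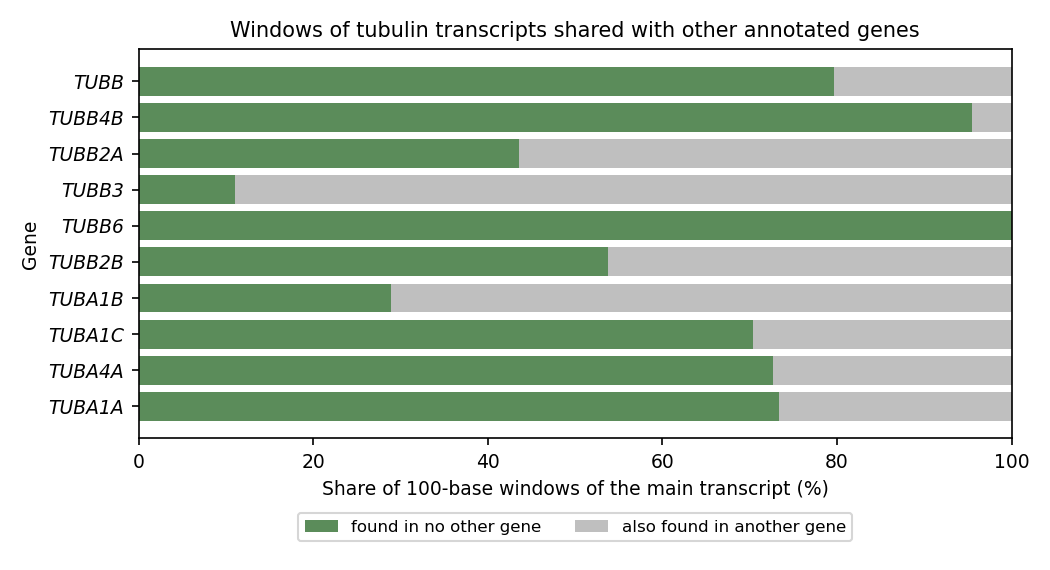
Share, in percent, of the 100-base windows of each gene's main transcript that occur in no other annotated gene (green) or also in another gene (grey). TUBB3 has 11.0% unique windows and TUBA1B 28.9%, while the bar of TUBB6 is wholly green.

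The differences of all genes moved with the GC content of their transcripts: genes with a GC content like that of TUBA1C had a median log2 difference of 0.12, and those like TUBB3 one of 0.31. The part of GC content in the tubulin values was not tested beyond the adjustment given here. The GC contents of the tubulin genes ran from 51.5% for TUBA1C to 62.4% for TUBB3. Each gene was therefore set beside the genes within 2-fold of its mean TPM and within 2.5 percentage points of its GC content. The place of TUBB2B among such genes was fixed by its choice and is not given. Of the 9 other genes, 7 lay between the 10th and the 90th percentile of those genes. TUBB3 (0.75, with 0.70 as the 90th percentile of 695 genes) lay above it. TUBA4A (-0.27, with -0.12 as the 10th percentile of 188 genes) lay below. After GC adjustment, TUBB2B differed by 4.51, TUBB2A by 0.33, TUBB6 by 0.07, TUBB4B by -0.0114 and TUBA4A by -0.36. TUBA4A overlaps STK16 on the opposite strand over 15.4% of its exon bases, and STK16 was at 47.6 TPM in the POH1 siRNA library and 32.6 TPM in the Control siRNA library.

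**Figure D4:**
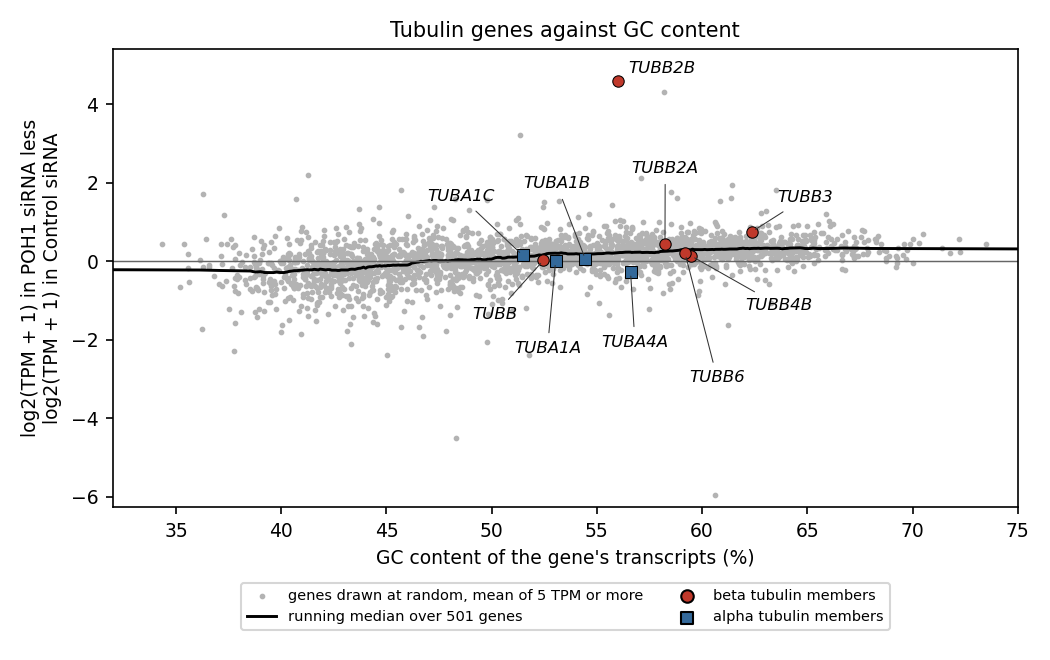
Log2 difference (POH1 siRNA less Control siRNA, on log2(TPM + 1)) against transcript GC content in percent for a random draw of genes averaging at least 5 TPM (grey), with a running median (line), the beta genes (circles) and the alpha genes (squares). TUBB2B, at 4.58, was picked for its rise and lies above all grey points, and most other tubulin genes lie near the line.

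TUBB2B and TUBB3 are markers of neurons, so other messages of neuronal or neuroendocrine cells were read beside them. Of 13 such genes, 9 were under 1 TPM in both libraries. Of these, DCX, STMN2, INA and ELAVL3 were listed at 0 in both, and GAP43 was at 0.131 TPM in the POH1 siRNA library and 0 in the Control siRNA library. ELAVL4 was at 0.298 and 0.0906 TPM and NEFM at 0.471 and 0.417 TPM, in POH1 siRNA and Control siRNA. NCAM1 was at 0.0183 and 0.0164 TPM and CHGA at 0 and 0.0564 TPM, in the same order. The 4 that were measured lay within 1.5-fold. ENO2, the neuronal enolase, was at 84.0 TPM in the POH1 siRNA library and 62.2 TPM in the Control siRNA library. NEFL, a neurofilament gene, was at 38.3 and 31.5 TPM, MAP2 at 2.40 and 2.83 TPM and SYP at 1.07 and 1.10 TPM, in POH1 siRNA and Control siRNA. The summed level of the 13 was 127 TPM in the POH1 siRNA library and 98.2 TPM in the Control siRNA library. In bulk RNA, more cells of a kind and more message per cell cannot be told apart.

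Few genes had a pattern like that of TUBB2B. With the measure of likeness being the level in each of the 2 libraries, 8 genes were under 0.1 TPM in the Control siRNA library and at 5 TPM or more in the POH1 siRNA library, TUBB2B included. The opposite pattern was as frequent, with 8 genes. Only SNX22, a sorting nexin gene, shared the TUBB2B pattern and had a symbol that was no clone or small RNA name. It was at 9.25 TPM in the POH1 siRNA library and 0.0817 TPM in the Control siRNA library, and it overlaps the abundant gene PPIB on the opposite strand (716 and 796 TPM in POH1 siRNA and Control siRNA). Of the 16 genes of both directions, 13 share exon bases with another gene on the same strand and the other 3, TUBB2B, SNX22 and CERS6-AS1, on the opposite strand. Of 14983 annotated genes that averaged at least 1 TPM, 2542 share same-strand exon bases and 7366, or 49.2%, share exon bases on either strand. The part of this overlap in the values was not tested.

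Of the other tubulin genes, 7 of 12 averaged at least 1 TPM and all 7 lay within 1.5-fold, with a median log2 difference of -0.0089. TUBB4A, a beta isotype best known from brain, was at 59.6 TPM in the POH1 siRNA library and 47.2 TPM in the Control siRNA library, higher in level than TUBB2A and TUBB3. The gamma tubulin genes, which nucleate microtubules, were at 161 TPM for TUBG1 and 39.9 TPM for TUBG2 in the POH1 siRNA library, and at 142 and 33.4 TPM in the Control siRNA library. The centriole genes TUBD1 (delta) and TUBE1 (epsilon) were at 3.22 and 6.92 TPM in the POH1 siRNA library, and at 4.80 and 6.97 TPM in the Control siRNA library. The alpha genes TUBA8 and TUBAL3 were at 1.26 and 1.01 TPM in the POH1 siRNA library, and at 1.64 and 1.49 TPM in the Control siRNA library.

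Among genes of tubulin folding, CCT8, CCT4, TCP1 and PFDN1 were lower in the POH1 siRNA library. New tubulin chains pass from prefoldin to the ring-shaped chaperonin CCT and then to the tubulin cofactors, which assemble the dimer. Of 8 CCT subunit genes, 3 were at least 1.5-fold lower and 0 were higher, beside 8.88% and 10.2% of all genes. The list's median was -0.28. CCT8 was at 68.5 TPM in the POH1 siRNA library and 169.7 TPM in the Control siRNA library, a log2 difference of -1.30. CCT4 was at 65.4 TPM in the POH1 siRNA library and 151 TPM in the Control siRNA library, a difference of -1.20. TCP1, the CCT1 subunit, was at 57.5 and 91.6 TPM in POH1 siRNA and Control siRNA (-0.66), and CCT2 at 206 and 270.5 TPM (-0.39). These genes have a low GC content: the median GC content of the list was 44.3%. After GC adjustment the list's median difference was -0.0494. CCT8 (-0.92) and CCT4 (-0.91) were then still 1.5-fold lower, while TCP1 (-0.39) was not. No share of all genes is given after GC adjustment, here or for the lists below.

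Of the 6 prefoldin genes, 1 was lower, beside 8.88% of all genes. PFDN1 was at 37.2 TPM in the POH1 siRNA library and 169.2 TPM in the Control siRNA library, a log2 difference of -2.16, and -2.06 after GC adjustment. The others lay within 1.5-fold, among them PFDN6 (98.6 and 125 TPM in POH1 siRNA and Control siRNA), PFDN2 (753 and 721 TPM) and PFDN5 (768 and 796 TPM). PFDN1 shares 39 exon bases with CYSTM1 on the opposite strand, and the sum with it differed by -1.02. Of 6 cofactor genes, 1 was higher, beside 10.2% of all genes. It was TBCB, which binds alpha tubulin, at 133 TPM in the POH1 siRNA library and 85.9 TPM in the Control siRNA library (0.62). TBCC was at 34.7 and 25.9 TPM, TBCA, which binds beta tubulin, at 153 and 203 TPM, and TBCEL at 1.61 and 2.83 TPM, in POH1 siRNA and Control siRNA. TBCB was no longer past 1.5-fold after GC adjustment (0.47).

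The starts of the coding sequences bear on the control of tubulin messages by free dimer, since TTC5 reads the residues that codons 2 to 4 encode. These codons are in capitals in the first 30 coding bases below (GENCODE release 29 main transcripts), and the beta genes share one kind of start and the alpha genes another. TUBB2B and TUBB2A differ here at 1 base.
TUBB2B: atgCGTGAGATCgtgcacatccaggcgggc
TUBB2A: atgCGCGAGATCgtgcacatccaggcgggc
TUBB: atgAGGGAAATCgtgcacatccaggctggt
TUBB4B: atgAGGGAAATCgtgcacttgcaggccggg
TUBA1B: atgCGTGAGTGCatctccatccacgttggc
TUBA4A: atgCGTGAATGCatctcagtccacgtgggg
None of the genes of this control was past 1.5-fold on the log2(TPM + 1) scale. TTC5 was at 4.11 TPM in the POH1 siRNA library and 4.33 TPM in the Control siRNA library. SCAPER, which links TTC5 to the deadenylase, was at 2.36 and 1.48 TPM, and the deadenylase subunits CNOT11 at 22.7 and 22.4 TPM and CNOT1 at 53.6 and 57.6 TPM, in POH1 siRNA and Control siRNA. With GC adjustment SCAPER was past 1.5-fold, at 0.79, and the median of the 4 was 0.27, beside -0.0204 without it. The adjustment was fitted on genes of at least 5 TPM and can overstate low genes. DCX, listed at 0 in both libraries, received an adjusted difference of 0.33. SCAPER and TTC5 lie below 5 TPM, so nothing is read from these adjusted values.

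Of 17 measured genes that modify tubulin, 2 were higher and 1 was lower, beside 10.2% and 8.88% of all genes. Their median was 0.36. That median depended on the filter and the pseudocount, being 0.12 with no filter, 0.0423 with a filter at 5 TPM and 0.16 with a pseudocount of 5. TTL, the ligase that puts back the terminal tyrosine of alpha tubulin, was at 3.50 TPM in the POH1 siRNA library and 8.06 TPM in the Control siRNA library, a log2 difference of -1.01. The higher genes were AGBL3, of the family of carboxypeptidases that trim tubulin tails, with a log2 difference of 0.73, and TTLL12, at 46.0 TPM in the POH1 siRNA library and 27.6 TPM in the Control siRNA library. After GC adjustment TTLL12 (0.56) was no longer past 1.5-fold, while AGBL3 (1.09) and TTL (-0.77) were. TTLL7 (0.84), within 1.5-fold before the adjustment, was then past it. AGTPBP1, which removes glutamate chains from tubulin, was at 1.27 and 2.23 TPM, within 1.5-fold on this scale.

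All 9 genes of the gamma-tubulin ring complex lay within 1.5-fold (median 0.05). TUBGCP2 was at 128 and 103 TPM, TUBGCP6 at 24.8 and 20.4 TPM, and TUBGCP3 at 18.3 and 15.2 TPM, in POH1 siRNA and Control siRNA, and TUBGCP4 had a log2 difference of -0.23. With the median ratio set to 0, the list medians of the ring complex and the cofactors were -0.0981 and -0.15, so no direction is read from either. Of 21 measured microtubule-associated genes, 4 were higher and 3 were lower, beside 10.2% and 8.88% of all genes. Their median was 0.25, or 0.0759 with no filter and 0.12 with the median ratio set to 0. The lower genes were STMN1, whose product stathmin binds free tubulin dimers (93.2 TPM in POH1 siRNA and 155 TPM in Control siRNA), the microtubule-severing gene KATNA1 (7.43 and 13.5 TPM) and the depolymerising kinesin gene KIF2A (4.20 and 8.02 TPM). The higher genes were MAP1S and, named after their values were seen, MAPRE2, MAPRE3 and CLASP1. MAP1S had the highest difference, at 25.1 TPM in the POH1 siRNA library and 14.7 TPM in the Control siRNA library. After GC adjustment none of the 3 lower genes was past 1.5-fold, and neither were MAP1S (0.55) and MAPRE3 (0.57). MAPRE2 (0.87), which averaged under 5 TPM, and CLASP1 (0.72) were still past it. MAP7 (0.67) and EML4 (0.62), within 1.5-fold before the adjustment, were then past it as well, so that 4 genes were higher. Over all 8 lists, 7 of 78 measured genes were higher and 8 were lower, shares near those of all genes. With the median ratio set to 0, 2 were higher and 11 were lower. No share of all genes was computed under that scaling, so no direction is read from these counts.

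**Figure D5:**
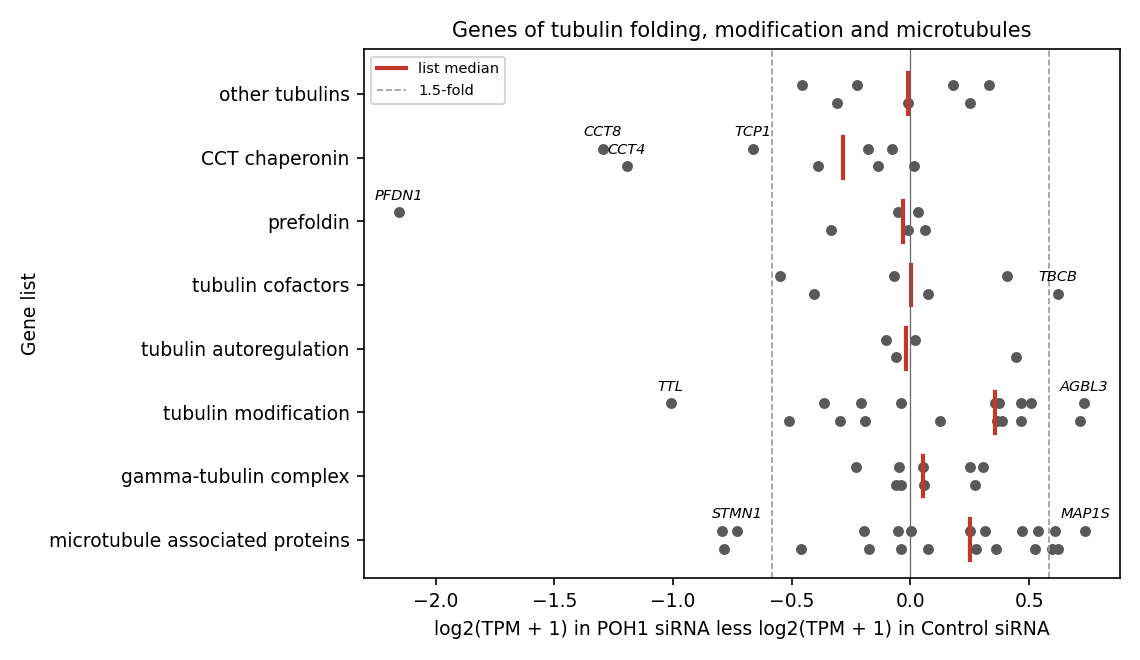
Log2 difference (POH1 siRNA less Control siRNA, on log2(TPM + 1)) of each measured gene in 8 lists of the tubulin pathway, with list medians as bars and dashed lines at 1.5-fold. PFDN1 (-2.16), CCT8 (-1.30), CCT4 (-1.20) and TTL (-1.01) are the farthest below 0.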

How the data were processed

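The data were a table of gene expression in 2 libraries. Per the labels' protocols, Trizol served for extraction and an mRNA kit for library construction. The submitters' processing notes name CASAVA, HISAT2 and build hg19. The authors deposited TPM per Ensembl gene, summing to 999968 (POH1 siRNA) and 999955 (Control siRNA). For the quantification tool, annotation and strand use nothing is given in the sources used here. Depth is likewise unknown, so values carry no counting interval. Symbols came from a name table by identifier (57392 of 58174, of which 15587 only repeat the Ensembl identifier), and TBCE is not analysed here. GENCODE release 29 (GRCh38) gave GC content, exon overlap and sequences, so coordinates shown are not of the build of the data. Log2 differences used a pseudocount of 1 and a filter at a mean of 1 TPM; GC adjustment subtracted a running median over 501 genes of at least 5 TPM. Calculations (Python 3.11.15, pandas 2.3.3, Biopython 1.88) were checked on simulated data. Named genes were all 10 tubulin genes, other tubulin genes of at least 1 TPM, neighbours of TUBB2B, and the 4 largest differences of each list. SLC22A23, BPHL, STK16 and marker genes were named as neighbours, overlapping genes or markers. The genes and lists were chosen with earlier results of these data known. Alternatives were other pseudocounts (0.1, 5), filters (none, 5 TPM), 3 scalings, GC adjustment and added pseudogenes. Sums with PSMG4, ENSG00000198211 and TUBA1B-AS1 were added after the data were seen. The sums of PFDN1 with CYSTM1 and of TUBA1A, TUBA1B and TUBA1C were not planned either.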

Additional observations from a re-analysis of the deposited data

How the results depend on the processing

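The recomputed differences past 1.5-fold were those of TUBB2B, TUBB3 and the TUBB2A and TUBB2B sum, and none changed its sign. This was largely fixed in advance, since a pseudocount cannot change a sign and the scalings shift ratios by less than these differences. Single genes of the lists were not recomputed, apart from the GC adjustment. The median log2 difference of the 10 tubulin genes was -0.0065 with the median ratio set to 0, 0.0028 with a trimmed mean set to 0 and 0.039 after GC adjustment. The count of higher tubulin genes was 1 after GC adjustment (TUBB2B), and 2 under the others. The TUBB2A and TUBB2B sum differed by 0.85 and 0.86 under the median and trimmed mean scalings. TUBB2B alone ran from 2.51 to 7.50 over the alternatives. Over the 8 lists, higher genes numbered 3 with a pseudocount of 5, 2 under the median scaling, 2 under the trimmed mean and 4 without mitochondrial and the 50 most abundant genes, and lower genes 11 under the median scaling, 11 under the trimmed mean and 4 after GC adjustment. Shares of all genes past 1.5-fold were not computed under these alternatives, so no direction is read from these list counts. The CCT list's median was -0.0494 after GC adjustment. The median and trimmed mean scalings lower log2 ratios by 0.15 and 0.14, and the cause of the other changes was not tested. Of 209 alternative values, 142 moved by less than 0.1 on the log2 scale, 10% of a share or 1.5 times for a count. Part of the 142 was fixed in advance, since a filter cannot change the log2 difference of a single gene that passes it. Adding TUBB2BP1, listed at 0, likewise left TUBB2B as it was. The 142 are therefore no measure of stability. No paired analysis was possible because each group has 1 library. The unknown depth limits low values, above all the TUBB2B value of the Control siRNA library.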

Other observations

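The table lists 52 tubulin pseudogenes by name, and 32 of them were at 0 in both libraries. The 5 with a mean of 1 TPM or more were close to level. TUBA5P was at 7.09 TPM in the POH1 siRNA library and 6.77 TPM in the Control siRNA library, TUBAP2 at 5.84 and 4.64 TPM, TUBAP13 at 3.72 and 3.83 TPM, TUBBP1 at 1.70 and 1.78 TPM, and TUBBP10 at 1.46 and 1.12 TPM. None of them had a difference like that of TUBB2B, whose own pseudogene TUBB2BP1 was listed at 0.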
